A study of Mus musculus with 9 samples.

Results

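The strong windows are the genomic windows that carried at least 800 scaled reads in each of 6 mouse ChIP-seq libraries labelled H3K9me3, and 975 of 17641 windows (5.53%) met that rule. The members were selected on the measured values of all 6 libraries, so their levels and the differences between their groups are given as descriptions. A scaled read is a whole read multiplied by a factor that the authors set for each library. Each member was named by the gene that the deposited table assigns to it, and the 975 windows carried 975 different gene names. The window named Gm38394 was also assigned to Zc3h11a.

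The groups were alphaTC1 cells, a line derived from mouse pancreatic alpha cells, taken on day 5 of transduction by an empty vector, alphaTC1 cells on day 5 of transduction by a short hairpin RNA (shRNA) against Smndc1, and betaTC3 cells, a murine pancreatic beta cell line, with no treatment. Each group had 2 libraries, here called library 1 and library 2. Each line is a single tumour-derived line, betaTC3 carried no vector, and the labels do not say whether libraries of a group came from separate cultures, so the spread between them may be technical. The empty-vector libraries held 5983486 and 9224783 reads in windows, the knockdown libraries 4530066 and 4800860, and the betaTC3 libraries 9924487 and 7198683. Both knockdown libraries thus held the fewest reads, and the part of depth in the knockdown change was not tested. A member held at least 626 reads in every library.

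H3K9me3, trimethylated lysine 9 of histone H3, is known as a mark of heterochromatin, where it is written over repeats, silent receptor gene clusters and clusters of zinc finger genes by SUV39H and SETDB1 enzymes and read by HP1 proteins. Starts of broadly expressed genes are known for CpG-rich promoters with a nucleosome array just downstream that carries marks of active transcription. Smndc1 encodes a splicing factor with a Tudor domain, related to the SMN protein. The positions and genes of the strong windows go against what the label of the libraries is known for, and the signal is therefore called that of the libraries labelled H3K9me3. Markers were checked in the same table. The glucagon gene Gcg held 340 and 352 scaled reads with the empty vector and 0 in both betaTC3 libraries, while the insulin gene Ins1 held 354 and 314 in betaTC3 and 1.32 and 0 with the empty vector. A window of Pdx1, a beta cell transcription factor, held 1829 and 1840 in betaTC3 and 5.30 and 0 with the empty vector. Not every marker followed its line. Ttr and Gc, listed as alpha cell markers, held 0 in both empty-vector libraries, and 130.2 and 122.8, and 35.9 and 44.7, in betaTC3. A window of the beta cell factor Nkx6-1 held 1068 and 1129 with the empty vector and 1223 and 1135 in betaTC3. Of 36 listed islet and other cell type markers 23 had a window, and 0 of these were strong in all 6 libraries.

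The promoter letters of 5 members are shown because they span the roles and the range of knockdown changes described below. They are the genes of the strongest ribosomal protein and splicing factor windows, of Smndc1 itself, and of the members with the lowest and the highest change. Each is the 250 bases before the start listed in RefSeq on GRCm38.p6 that is nearest to the window centre. The letters are written 5′ to 3′ along the gene, with matches to the searched motifs in capitals. The listed start can differ from the gene start used for the distances below. From the listed start the window centre lay at -22 bases in Smndc1 and 339 in Rpl19. From the other gene start it lay at 515 and 553, so these letters lie partly or wholly downstream of that start.
Rpl19 (chr11:98026674-98026923, plus strand): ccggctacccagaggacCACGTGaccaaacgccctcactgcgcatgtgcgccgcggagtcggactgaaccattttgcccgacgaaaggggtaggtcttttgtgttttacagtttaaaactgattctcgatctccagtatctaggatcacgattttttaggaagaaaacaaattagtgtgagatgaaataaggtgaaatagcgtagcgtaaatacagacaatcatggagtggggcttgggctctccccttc
Hnrnpu (chr1:178337816-178338065, minus strand): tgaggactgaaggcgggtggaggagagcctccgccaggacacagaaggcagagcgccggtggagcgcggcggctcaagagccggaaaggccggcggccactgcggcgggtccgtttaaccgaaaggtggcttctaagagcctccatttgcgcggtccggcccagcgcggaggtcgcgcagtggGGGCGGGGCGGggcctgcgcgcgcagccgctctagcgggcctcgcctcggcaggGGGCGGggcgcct
Smndc1 (chr19:53390042-53390291, minus strand): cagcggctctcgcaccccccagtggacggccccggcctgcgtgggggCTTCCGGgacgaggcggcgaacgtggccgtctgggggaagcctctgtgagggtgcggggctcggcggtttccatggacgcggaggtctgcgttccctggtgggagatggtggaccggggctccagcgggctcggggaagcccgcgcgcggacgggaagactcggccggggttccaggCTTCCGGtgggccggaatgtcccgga
Rab1a (chr11:20201162-20201411, plus strand): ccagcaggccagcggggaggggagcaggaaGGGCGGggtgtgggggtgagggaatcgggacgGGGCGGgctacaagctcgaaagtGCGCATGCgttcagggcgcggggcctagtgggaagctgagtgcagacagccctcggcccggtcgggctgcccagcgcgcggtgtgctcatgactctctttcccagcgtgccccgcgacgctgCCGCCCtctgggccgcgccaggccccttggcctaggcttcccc
Hap1 (chr11:100356129-100356378, minus strand): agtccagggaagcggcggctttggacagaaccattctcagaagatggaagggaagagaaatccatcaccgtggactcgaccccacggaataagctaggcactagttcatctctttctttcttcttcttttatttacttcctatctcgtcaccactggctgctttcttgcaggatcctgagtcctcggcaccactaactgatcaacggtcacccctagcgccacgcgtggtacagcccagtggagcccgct
The capitals mark 1 E-box in Rpl19, 3 SP/KLF boxes in Hnrnpu of which a pair shares a base, 2 ETS sites in Smndc1, and 3 SP/KLF boxes and 1 NRF1 core in Rab1a. Hap1 holds none of the searched motifs. GC content was 48.0% in Rpl19, 73.6% in Hnrnpu, 74.0% in Smndc1, 72.4% in Rab1a and 52.8% in Hap1. AC149090.1, the member with the most reads, has no entry.

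Strong windows lay at gene starts. Of the 975, 930 (95.4%) had a gene start within 1 kb, against 65.9% of all windows, and 884 (90.7%) were assigned to protein-coding genes, against 73.2% of all windows. The centre lay downstream of the start in 886 members (90.9%), at a median of 325 bp with quartiles of 254.5 and 441 bp. Among windows within 1 kb the centre was downstream in 91.7% of members and in 84.3% of the other windows, at medians of 322 and 247 bp. The windows had been set by the authors, and 99.8% of all windows share a single width. Of the members not assigned to protein-coding genes 43 were antisense transcripts, 8 microRNAs and 8 small nucleolar RNAs, and such small genes can lie inside the first part of a larger gene. Without a stated strand their signal cannot be told apart from that of the overlapping gene. A distance above 10 kb was found for 6 members, Tollip, Wdr7, Lncppara, Asb8, Gm25805 and Gm42528.

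Each strong window also lay in a peak of all 6 deposited peak lists, in 975 separate peaks per list. These peaks had a median width of 2011 to 2308 bp over the lists, against 1129 to 1287 bp for all peaks. The −log10 q-value that the authors' peak caller gave placed the median member peak at the 83.4th to the 95.9th percentile of its own list. Window and peak values come from the same reads, so the lists are not a separate measurement.

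The median member held 1471 and 1511 scaled reads in the empty-vector libraries, 972 and 1251 in the knockdown libraries and 1253 and 1152 in the betaTC3 libraries. All windows had medians of 314, 325, 225, 270, 293 and 270 in the same order. Members made up 16.2 to 19.8% of the scaled reads of a library. Knockdown library 1 was the lowest library of 663 members, betaTC3 library 2 of 241 and betaTC3 library 1 of 71. The threshold was therefore met or missed most often in knockdown library 1. Of 942 windows that missed 800 in 1 library only, 852 missed it there.

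**Figure D1:**
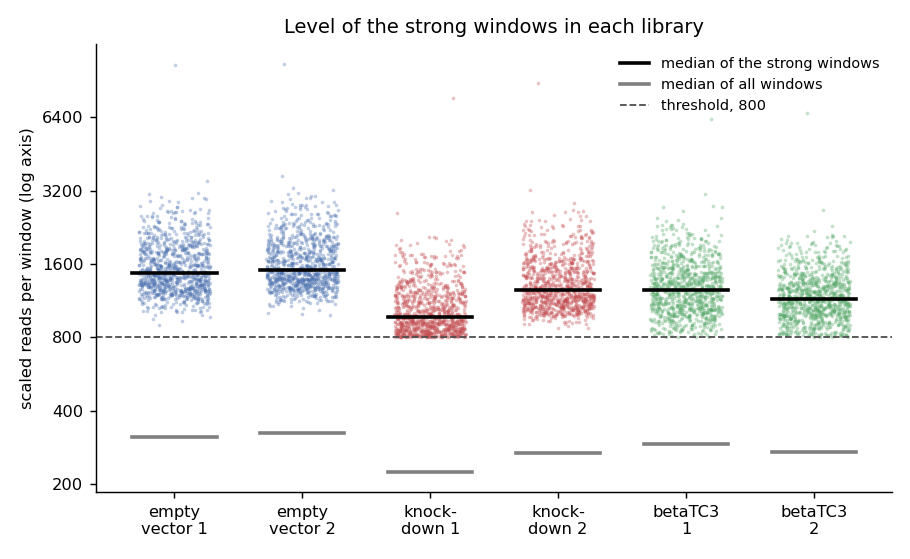
Scaled reads (log axis) of the 975 strong windows in each of the 6 libraries, 1 point per window, with black bars at their medians, grey bars at the medians of all 17641 windows and a dashed line at the threshold of 800. The points of knockdown library 1 crowd against the threshold, with a median of 972, and those of the empty-vector libraries stand furthest above it, with medians of 1471 and 1511.

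Members just inside the threshold were Edc4, an mRNA decapping scaffold, Ppp4c, a protein phosphatase, Metap2, an enzyme that trims the first methionine, and Actr3, a subunit of the ARP2/3 complex, all with 800.3 scaled reads in knockdown library 1, and Ost4, a subunit of oligosaccharyltransferase, with 801.0 in betaTC3 library 1. Just outside were Srbd1, with 799.4 in betaTC3 library 2, and Galk2, Mir6936, Zfp655 and Pcm1, with 799.1 in knockdown library 1. Each of these differs from the threshold by less than 2 reads.

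The highest member was AC149090.1, on an unplaced contig (Un_JH584304), with 10515 and 10540 scaled reads with the empty vector, 7680 and 8879 in the knockdown and 6284 and 6633 in betaTC3. It stood far above the rest. Rhbdd3, a rhomboid family gene (chr11:5098470-5098870), followed with 3500 and 3658, 2599 and 3213, and 2057 and 1788. Rpl19, a protein of the large ribosomal subunit (chr11:98027063-98027463), held 3013 and 3122, 2073 and 2854, and 1921 and 1692. Npm1, nucleophosmin of the nucleolus (chr11:33162572-33162972), held 3140 and 3281, 2040 and 2626, and 1421 and 1433. In all 4 the empty-vector libraries were the highest and betaTC3 the lowest. Rbm39, an RNA-binding splicing factor (chr2:156179631-156180031), held 2625 and 2587, 1581 and 2230, and 2734 and 2076, so its betaTC3 libraries overlapped those of the empty vector. The others of the 10 highest were Blcap, Gm20716, Rnf4, Wdr45b and Ptpn1.

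Lists of genes for processes that every cell uses had the highest shares of strong windows. Gene lists were matched by symbol, and 243 members (24.9%) fell in any of 29 lists. A share of 5.53% of all windows and 8.0% of windows within 1 kb of a gene start (930 of 11632) were strong, and this is the level against which the lists are read. The lists were chosen with these data known, and their shares are descriptions.

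Among the lists for making proteins, 18 of 61 windows of translation factors (29.5%), 15 of 72 of cytosolic ribosomal proteins (20.8%), 7 of 35 of aminoacyl-tRNA synthetases (20%) and 7 of 67 of mitochondrial ribosomal proteins (10.4%) were strong. Eif2s2, the beta subunit of the initiation factor that brings the first tRNA, held 2504 and 2700 scaled reads with the empty vector, 1954 and 2405 in the knockdown and 1788 and 1652 in betaTC3. The helicase gene Eif4a1 held 2247 and 2305, 1437 and 1972, and 2114 and 2017. Rars, the arginyl-tRNA synthetase, held 2150 and 2248, 1478 and 1908, and 1070 and 1010. In each of these genes both knockdown libraries were below both empty-vector libraries.

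Genes of RNA handling had similar shares, with 21 of 78 windows of splicing factors (26.9%) and 14 of 47 of nuclear pore and transport genes (29.8%). Hnrnpu, which encodes an abundant nuclear RNA-binding protein, held 2297 and 2414 scaled reads with the empty vector, 1610 and 2122 in the knockdown and 2405 and 1952 in betaTC3. Srsf2 and Srsf6, SR proteins that guide splice site choice, held 2167 and 2069, and 1936 and 1807, with the empty vector. Smndc1 itself was a member (chr19:53389863-53390263), with 1370 and 1378 with the empty vector, 812 and 1126 in the knockdown and 1689 and 1653 in betaTC3. A hairpin acts on RNA, so this window does not check the knockdown. Kpnb1, the importin that carries proteins into the nucleus, held 2639 and 2785, 1689 and 2084, and 1450 and 1356.

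For energy and protein turnover, 20 of 68 windows of respiratory chain genes (29.4%), 6 of 20 of mitochondrial protein import (30%), 11 of 46 of the proteasome (23.9%), 8 of 72 of chaperones (11.1%) and 20 of 181 of ubiquitin enzymes (11%) were strong. Cox6c, a subunit of cytochrome c oxidase, held 1762 and 2044 scaled reads with the empty vector, 1360 and 1768 in the knockdown and 2211 and 2082 in betaTC3. Here a knockdown library reached past an empty-vector library. Psmd3, a lid subunit of the proteasome, held 2636 and 2808, 1927 and 2514, and 1427 and 1442. Vesicle traffic added 31 of 233 windows (13.3%), the most members of any list.

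In transcription and genome maintenance, 14 of 91 windows of RNA polymerase, mediator and general transcription factors (15.4%), 13 of 117 of DNA replication and cell cycle (11.1%), 9 of 106 of chromatin regulators (8.49%) and 3 of 53 of DNA repair (5.66%) were strong. The cell cycle list was drawn up by symbol and its members include Ccnt2 and Cdk12, which act on RNA polymerase II, and Cdc5l, a splicing protein. Of 17 windows of genes for H3K9 methylation and heterochromatin 4 (23.5%) were strong, at Morc2a, Cbx1, Ehmt2 and Daxx. Cbx1, an HP1 protein that reads the mark, held 1846 and 1921 scaled reads with the empty vector, 1161 and 1491 in the knockdown and 1180 and 977 in betaTC3. Ehmt2, the G9a methyltransferase, held 1217 and 1134, 805 and 998, and 1725 and 1084.

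Of the lists of tissue-restricted genes, the count was 0 of 111 for ion channels and transmitter receptors, 0 of 61 for immune genes, 0 of 55 for olfactory and vomeronasal receptors and 0 of 2 for keratins. It was 0 of 33 for pan-endocrine and granule genes and 0 of 19 for beta cell identity. The rule asks for 800 in both lines, so a gene with signal in 1 line only, such as Pdx1, cannot be a member, and nothing is read from the counts of the islet lists. At the 5.53% of all windows, the islet and keratin lists are also short enough to hold few members or none. Within 1 kb of a gene start, where 95.4% of members lay, were 4 of the 55 olfactory and vomeronasal receptor windows. The count was 0 of 2 for keratins, so nothing is read from the 0 members of these lists. It was 77 of 111 for ion channels and transmitter receptors and 44 of 61 for immune genes. Zinc finger proteins, whose gene clusters are known for H3K9me3, had 11 of 411 windows (2.68%), solute carriers 6 of 209 (2.87%) and homeobox and other developmental factors 2 of 82 (2.44%), the broadly expressed Foxk2 and Foxp1. The cytochrome P450 list had 1 of 21 windows (4.76%), at Cyp51, a sterol synthesis enzyme. The alpha cell list had 1 of 13 (7.69%), at Pcsk2, the convertase that makes glucagon from its precursor (chr2:143546872-143547272). Both shares are near the 5.53% of all windows. Pcsk2 held 1029 and 1119 scaled reads with the empty vector, 934 and 1096 in the knockdown and 1658 and 1666 in betaTC3.

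The lists were also read with the threshold on the betaTC3 libraries alone, a choice made after seeing the data. Then 16.0% of all windows met the threshold, with 62.8% of splicing factors, 59.6% of nuclear pore and transport genes, 52.5% of translation factors, 50.0% of the proteasome and 48.6% of cytosolic ribosomal proteins. Ion channels and transmitter receptors had 1.80%, homeobox and other developmental factors 6.10% and zinc finger proteins 10.9%. Pan-endocrine and granule genes, with 0 under the rule for all 6 libraries, had 27.3% (9 of 33), above the share of all windows, and beta cell identity had 15.8% (3 of 19).

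**Figure D2:**
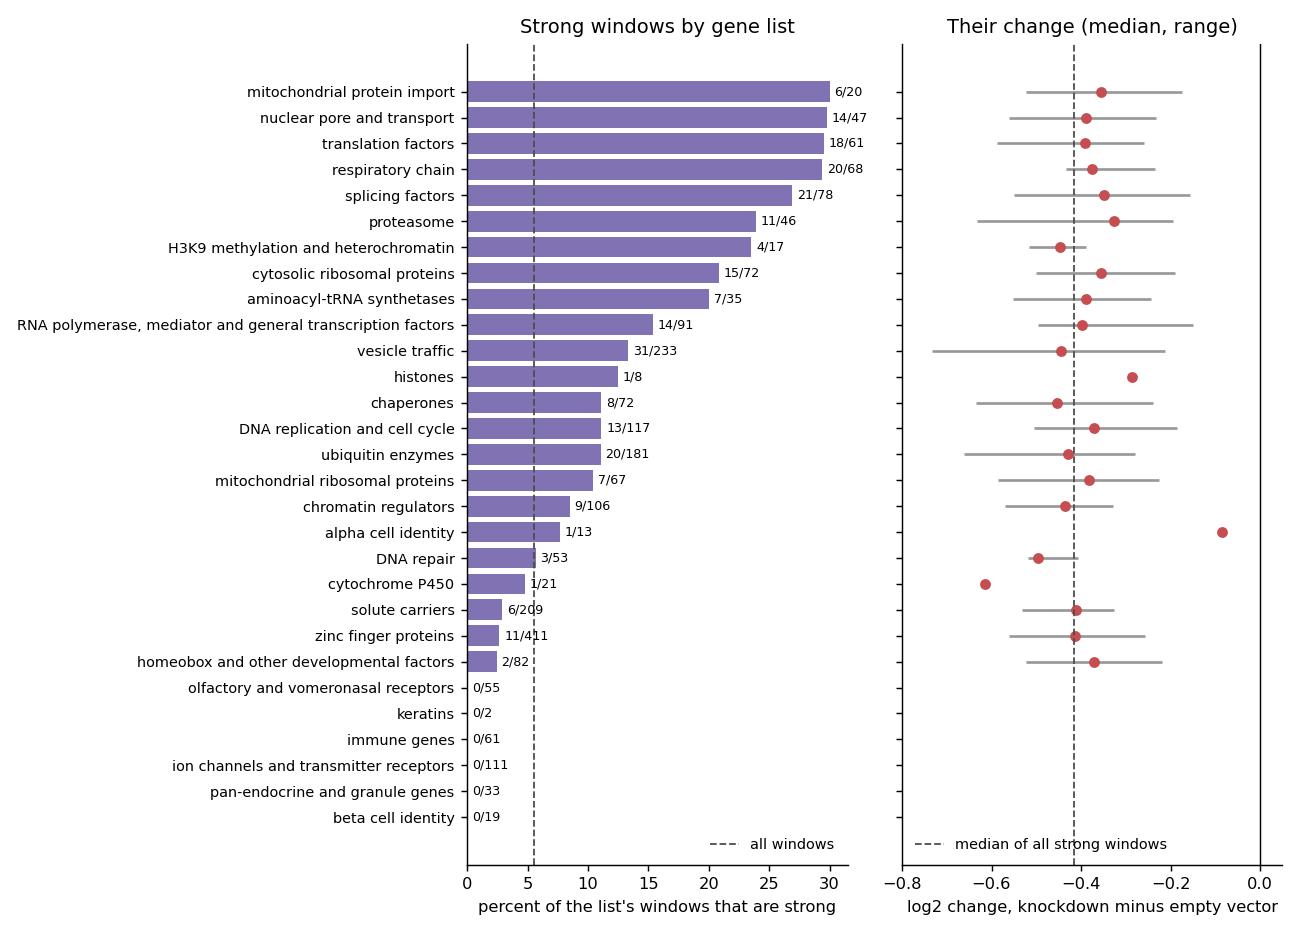
Left, percent of the windows of each gene list that are strong, with the count of strong and of all windows and a dashed line at the 5.53% of all windows. Right, the log2 change of the strong windows of that list, knockdown minus empty vector, as a point at the median and a line from the lowest to the highest member, with a dashed line at the median of the 975. The lists of translation factors, cytosolic ribosomal proteins, splicing factors, nuclear transport, respiratory chain and proteasome genes lie between 20.8% and 29.8%, and 6 lists have 0.

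The RefSeq promoter table matched 734 of the 975 members (75.3%), too few for a statement over all of them, so only protein-coding members within 1 kb are described, of which 683 of 848 matched (80.5%). Their 250 bases before the listed start nearest to the window centre were read. The medians were a GC content of 62.0%, 19 CpG dinucleotides and an observed over expected CpG ratio of 0.854. Over the 32851 promoters in the table the medians were 52.4%, 6 and 0.373. Those promoters were not limited to protein-coding genes or to genes with a window, so the 2 sets are unlike. The other protein-coding windows within 1 kb had medians of 61.6%, 17 and 0.761. Only 77.6% of them matched, under the limit of 80% set for such a check, so a comparison of the members with them is void.

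Motifs were searched on both strands by their exact letters, in windows of the same length, and a match is a description of the letters. The SP/KLF box GGGCGG was in 67.6% of members and 32.7% of all promoters, the ETS site CCGGAAG in 22.5% and 6.91%, and the NRF1 core GCATGCGC in 6.30% and 2.26%. The palindromic CGCG box CTCGCGAGA was in 2.64% and 0.569%, the YY1 site AAGATGGC in 3.37% and 1.56%, the cyclic AMP response element TGACGTCA in 3.81% and 1.55%, the E-box CACGTG in 9.37% and 6.02% and the CCAAT box CCAAT in 39.7% and 33.8%. The TATA box TATAAA was in 5.86% of members and 12.4% of all promoters. Among the other protein-coding windows within 1 kb that matched, the SP/KLF box was in 66.4%, the ETS site in 14.1% and the TATA box in 5.07%. The NRF1 core was in 5.03% of them, the palindromic CGCG box in 1.25% and the YY1 site in 1.74%. The cyclic AMP response element was in 2.92%, the E-box in 8.72% and the CCAAT box in 37.3%. The match of those other windows was under the limit of 80%, so a comparison with them is void here too. No motif share is read as particular to the members. The letters of different motifs may overlap.

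The knockdown libraries held less signal than the empty-vector libraries at nearly every strong window. The change in log2(scaled reads + 1), the mean of the 2 knockdown libraries minus the mean of the 2 empty-vector libraries, had a median of -0.42, which is 74.96% of the empty-vector level, and was below 0 in 974 of 975 members. The signal of all windows was lower too, with a median of -0.37 and 81.2% below 0. Many of these windows hold few reads. The 11202 windows with an empty-vector mean of at least 100 scaled reads had a median of -0.42, and 97.2% were below 0. The fall is thus not read as particular to the members. When each library was centred on its own median, the median of all windows moved to 0.00, that of the members to -0.04, and 652 members (66.9%) were below 0. Both knockdown libraries lay below both empty-vector libraries in 949 members (97.3%) and in 64.6% of all windows, they overlapped in 26 members, and in 0 members were both above.

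Limma called 0 of the 17641 windows (0%) between knockdown and empty vector at an adjusted p below 0.05, and so 0 members. An unadjusted p under 0.05 was found for 6169 windows (34.97%) and 425 members (43.6%). The count of members was not stable, with 89 (9.13%, against 13.1% of all windows) after centring and 39 (4.0%, against 6.11%) in DESeq2. It was 141 (14.5%, against 28.2%) with betaTC3 out of the fit and 463 (47.5%, against 37.4%) in edgeR with the authors' scaling. Members were thus under the share of all windows in some settings and above it in others. Among the strong windows edgeR also called 0, with TMM or with the authors' scaling, and DESeq2 called 0. Without knockdown library 2, where the spread of the other groups stands in for that of the single knockdown library left, limma called 837 members, all lower, and 6281 windows. Without knockdown library 1 it called 0 members and 0 windows.

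The change lay in a narrow range across members, though a wider one than counting error alone gives. Its quartiles were -0.49 and -0.35, an interquartile range of 0.14, and the whole range was -0.73 to 0.0016. A change within 0.1 of the median was found in 629 members (64.5%), and within 0.2 in 922 (94.6%). The SD over members was 0.107, against 0.0440 from counting error alone, and the variance from counting error equals 17.0% of that between members. All windows had an interquartile range of 0.38, but most of them hold fewer reads. The 11202 windows with an empty-vector mean of at least 100 scaled reads had 0.21. Between the single libraries of a group, the interquartile range over members was 0.10 for the empty vector, 0.14 for the knockdown and 0.17 for betaTC3.

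Knockdown library 1 had median differences of -0.55 and -0.62 from the empty-vector libraries 1 and 2, and knockdown library 2 had -0.22 and -0.27. The knockdown libraries differed from each other by a median of 0.34, with library 2 higher in all 975 members, the empty-vector libraries by 0.06 and the betaTC3 libraries by -0.08, library 2 minus library 1. Only the gap between the knockdown libraries was wider than the interquartile range of 0.14 over members. Knockdown library 1 was the lowest of the 4 alphaTC1 libraries in 975 of 975 members and in 68.2% of all windows. The median change was -0.59 with knockdown library 1 alone and -0.25 with library 2 alone, a range over 1.5 times wide, and the interquartile ranges were 0.18 and 0.14.

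**Figure D3:**
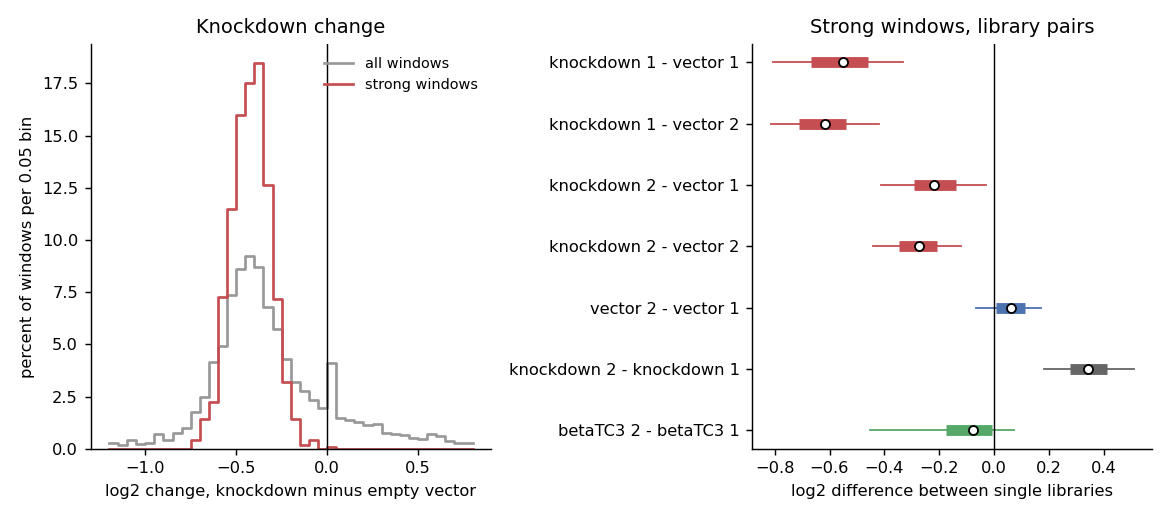
Left, distribution of the log2 change, knockdown minus empty vector, for the 975 strong windows and all 17641 windows, as percent of windows per bin of 0.05 (windows beyond the axis not drawn). Right, differences between single libraries over the 975 strong windows, with a point at the median, a bar over the quartiles and a line from the 5th to the 95th percentile. The strong windows form a narrow peak around -0.42, and knockdown library 1 stands further from the empty-vector libraries than knockdown library 2 does.

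Members kept part of their order in comparisons that share no library. The difference of knockdown library 1 from empty-vector library 1 correlated over the 975 members with that of knockdown library 2 from empty-vector library 2 at Pearson's r = 0.45 (Spearman's rho = 0.42), and the other pairing gave 0.59 (rho = 0.56). The difference between the 2 betaTC3 libraries, in which no knockdown was made, correlated with the knockdown change at r = 0.39 (rho = 0.42). Members share the libraries, and their base composition differs, so these are descriptions. Over the 683 members with a matched promoter, promoter GC content had an r of -0.25 with the knockdown change, -0.24 with the difference between the empty-vector libraries and -0.29 with that between the betaTC3 libraries. The part of base composition in the ranking of members was not tested.

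Split at its quartiles into 4 bins, promoter GC content went with median changes of -0.38, -0.40, -0.43 and -0.46 from the bin lowest in GC to the highest. The 4 bins by mean level had medians of -0.38, -0.41, -0.44 and -0.45 from the lowest to the highest. In both splits the median was lower in each bin than in the bin before it, and these orders were not tested.

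The rule bounds every member from below in the knockdown libraries, so the change was also described by level in betaTC3, whose libraries are not part of it. Windows with a betaTC3 mean under 10 scaled reads had a median change of -0.18 and an interquartile range of 0.62, and those at 10 to 50 had -0.08 and 0.68. From there the median was lower and the range narrower with level, at -0.36 and 0.28 for 200 to 400 scaled reads, -0.46 and 0.17 at 800 to 1200 and -0.47 and 0.14 at 1600 or more. For the 2815 windows with 800 in both betaTC3 libraries the median was -0.45, the interquartile range 0.16 and 99.7% were below 0. The 1827 windows chosen on the 5 libraries other than knockdown library 1 had -0.43 and 0.14. The 2815 windows, chosen without the alphaTC1 values, were thus lower by an amount and with a spread similar to those of the members.

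**Figure D4:**
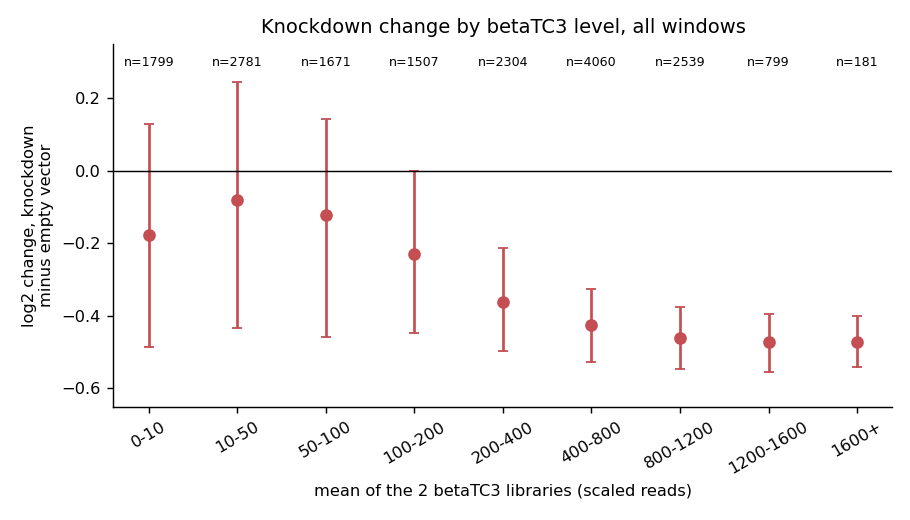
Log2 change, knockdown minus empty vector, of all windows in bins of the mean of the 2 betaTC3 libraries (scaled reads), with a point at the median, bars over the quartiles and the number of windows above. The median is -0.08 at 10 to 50 scaled reads and -0.47 in the highest bin, where the interquartile range is 0.14.

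The lowest change was that of Rab1a, a GTPase of transport from the endoplasmic reticulum to the Golgi (chr11:20201454-20201854). It held 1900 and 1897 scaled reads with the empty vector, 972 and 1342 in the knockdown and 1361 and 1008 in betaTC3, a change of -0.73. Sub1, a transcriptional coactivator, held 1830 and 1707, then 927 and 1245, a change of -0.72. Xrn2, the nuclear 5′ to 3′ exonuclease, held 1847 and 1879, then 967 and 1332, a change of -0.71. In all 3 genes both knockdown libraries lay well below both empty-vector libraries. The other members of the lowest 10 were Htt, the huntingtin gene, Adnp, a homeobox protein that binds HP1, Osbpl2, Mir7036b, Map3k3, Mapre3 and Dmtf1, with changes of -0.70 to -0.67.

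At the other end Hap1, which encodes huntingtin-associated protein 1 (chr11:100355644-100356044), held 1245 and 1342 scaled reads with the empty vector, 1189 and 1409 in the knockdown and 1597 and 1571 in betaTC3. Its libraries overlapped, with a change of 0.0016, the only one above 0. Nuf2, a kinetochore protein, held 933 and 985, then 815 and 1024, a change of -0.07. Pcsk2 had a change of -0.08, and Tardbp, the RNA-binding protein TDP-43, one of -0.15. The rest of the 10 were Gm20496, Ppp1r10, Cdkn2c, Med6, Srsf3 and Top2a, and in all 10 members knockdown library 1 was the lowest of the alphaTC1 libraries. Rab1a and Hap1, whose promoters are printed above, both lie on chromosome 11.

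Gene lists with at least 10 members had median changes between -0.44 and -0.33. The median was -0.33 for the 11 members of the proteasome, -0.35 for the 15 of cytosolic ribosomal proteins and the 21 of splicing factors, -0.37 for the 20 of the respiratory chain, -0.39 for the 18 translation factors, -0.43 for the 20 ubiquitin enzymes and -0.44 for the 31 of vesicle traffic. A median of several members varies less than single members do, so the span of these medians is not read as evenness. Single members of a list spread more widely than the lists did. In the proteasome list Psmd11 had -0.63 and Psmd2 -0.20, in splicing factors Hnrnph1 had -0.55 and Srsf3 -0.16, and in vesicle traffic Rab1a had -0.73 and Sec22b -0.21. Smndc1 had a change of -0.52.

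Strong windows were unevenly spread over chromosomes. Chromosome 11 held 205, which is 21.0% of the members and 14.8% of its own windows, followed by chromosome 2 with 116, chromosomes 15 and 17 with 88 each and chromosome 5 with 83. These 5 held 59.5% of the members and 31.0% of all windows. Chromosomes 13 and 14 held 0, X held 1, at Kdm5c, an H3K4 demethylase, and chromosome 9 held 7. With the empty vector the median of windows within 1 kb of a gene start was 957 scaled reads on chromosome 11 and 783 on chromosome 15, and 413, 377 and 348 on chromosomes 9, 14 and 13. In betaTC3 it followed the number of members only in part. It was 830 on chromosome 15 and 707 on chromosome 5. It was 357 on chromosome 9, 345 on X and 327 on chromosome 13. Other chromosomes were out of this order, at 608 on chromosome 11, 517 on chromosome 1 with 74 members and 511 on chromosome 6 with 68. It was 712 on chromosome 12 with 13 members, 641 on chromosome 18 with 14 and 545 on chromosome 14 with 0. The part of these levels in which genes are strong was not tested.

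**Figure D5:**
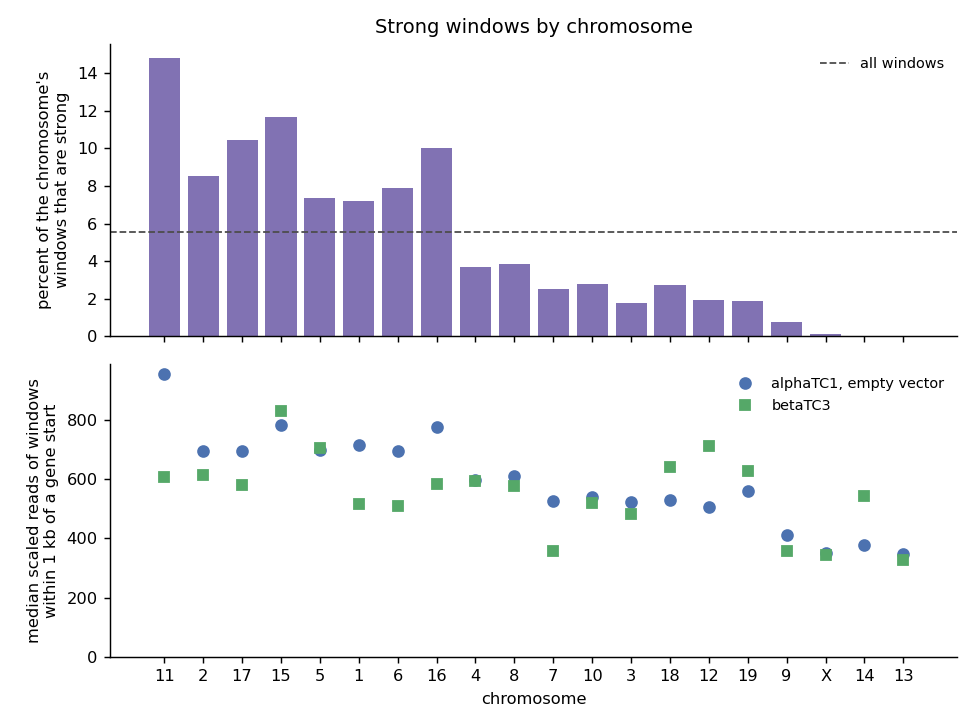
Top, percent of the windows of each chromosome that are strong, with a dashed line at the 5.53% of all windows. Bottom, median scaled reads of windows within 1 kb of a gene start for the mean of the 2 empty-vector libraries and of the 2 betaTC3 libraries, with chromosomes in order of their number of strong windows from left to right. Chromosome 11 is highest in share, at 14.8%, and in the empty-vector median, at 957, but not in betaTC3, at 608.

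Chromosome medians of the knockdown change lay close together. The 12 chromosomes with at least 20 members had median changes of -0.45 to -0.38, and taking out chromosome medians left the interquartile range at 0.14. The change between cell lines was spread more widely over the members. BetaTC3 minus empty vector had a median of -0.33 over the members, quartiles of -0.64 and -0.08 and a range of -1.63 to 0.90, and over the same 12 chromosomes its medians ran from -0.77 on chromosome 11 to 0.01 on chromosome 10. Chromosomes with fewer members reached higher, at 0.41 for the 13 members on chromosome 12 and 0.35 for the 14 on chromosome 18. Taking out all chromosome medians narrowed the interquartile range from 0.55 to 0.33. All windows had a median of -0.13 between the lines and an interquartile range of 1.29. With each library centred on its median, the median was -0.15 over the members and 0.05 over all windows. The knockdown change and the change between lines share the empty-vector libraries.

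The lines differed by less than 2-fold in 919 members (94.3%). The rule asks for 800 in both lines, which limits how far a member can differ, so nothing is read from that count. In betaTC3 800 members (82.1%) were lower, against 56.3% of all windows. With each library centred on its median, 641 members (65.7%) and 47.7% of all windows were lower. Limma called 330 members lower in betaTC3 (33.8%), where the share of all windows called lower was 33.2%, and 7 members higher (0.718%), where it was 22.1%. The threshold in betaTC3 itself keeps out windows with much lower values there, and nothing is read from these shares. With the knockdown out of the fit, 507 members and 6437 of all windows were called lower, and 41 members and 4216 windows higher. With each library centred on its median, 422 members and 5623 of all windows were called lower, and 151 members and 6050 windows higher. The lowest 5 members, Cyth1, Ddx56, Kat2a, Usp36 and Spred2, all lie on chromosome 11. Cyth1, an exchange factor for ARF GTPases, held 2976 and 3055 scaled reads with the empty vector and 958 and 984 in betaTC3, with no overlap. The highest 5 were 1110002L01Rik, Ywhaz, Cdca4, Rad21 and Lmnb1. Ywhaz, a 14-3-3 protein, held 1535 and 1325 with the empty vector and 3110 and 1748 in betaTC3, where the 2 libraries differed widely. Rad21, a subunit of cohesin, held 1206 and 1348, then 2460 and 1612.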

How the data were processed

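The data were ChIP-seq libraries of 3 groups of 2, each group with 1 input sample that was not analysed separately. The authors deposited a table with 1 signal (coverage) value per library for 17641 windows. In every library 100% of the values were whole multiples of 1 step within a tolerance of 0.001, so whole reads were recovered. The origin of these factors and any subtraction of input are not given in the sources used here. Deposited by the authors was also 1 peak list per library, with a fold (ratio) over background and a −log10 q-value, used only within a list. The tools MACS2 2.2.7.1, Bowtie2 2.4.1 and Picard 2.19.2 and the build mm10 (GRCm38) are listed per the submitters' processing notes, without their roles. Of the deposited table's columns, all per-library values belonged to these samples.

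Changes were computed on log2(scaled reads + 1) with limma 3.58.1 (intensity trend, 3 group means over 6 libraries, Benjamini-Hochberg adjustment over all windows, calls at an adjusted p below 0.05). EdgeR 4.0.16 and DESeq2 1.42.0 on the recovered reads were alternatives, and the limma script was tested on simulated data. Scripts ran in R 4.3.3 and, with bedtools 2.31.1, in Python 3.11.15 (numpy 2.4.6, matplotlib 3.10.9, pandas 2.3.3). Counting error was taken from the recovered reads and covers no other error, as the reads carry no molecular identifiers. Named windows were the 10 highest, the 10 lowest and 10 highest in knockdown change, the 5 lowest and 5 highest between lines, 5 on each side of the threshold, the 3 highest and the extremes of each list, Smndc1, Atrx and the markers. The members and lists were chosen with earlier results of these data known. Same-numbered libraries did not deviate together (r = -0.0079, 0.085 and -0.176 between groups), and were not treated as pairs.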

Additional observations from a re-analysis of the deposited data

How the results depend on the processing

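The median knockdown change of the strong windows depended on the scaling. It was -0.42 with the authors' scaling, -0.042 with each library centred on its median, -0.038 in edgeR with TMM and -0.047 in DESeq2, the last 2 chosen after seeing the data, and -0.59 to -0.25 with an alphaTC1 library left out. Centring moves the change of every window by the same amount, so the interquartile range of 0.14 could not differ under it. That range was 0.14 to 0.18 with a library left out and 0.11 at a threshold of 1600.

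The number of strong windows was 5316 at a threshold of 400, 15 at 1600, 2815 with the threshold on the betaTC3 libraries only, 1739 with libraries rescaled to the same median, and 975 to 1827 with a library left out, the highest without knockdown library 1.

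Between knockdown and empty vector the 0 windows called became 335 with a pseudocount of 0.1, 163 without the trend, 2 among windows with a mean of at least 20, 31 when betaTC3 stayed out of the fit, 10 in DESeq2 and, chosen after seeing the data, 82 in edgeR with the authors' scaling. Leaving out a library gave 0 to 6281 windows and 0 to 837 strong windows. With the replicate block, the number as a paired term, 0 windows and 0 strong windows were called, and between the lines 9152 windows and 240 strong windows against 9744 and 337 without it.

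Strong windows called between the lines numbered 573 after centring, 548 when the knockdown stayed out of the fit, 597 in edgeR with TMM, 513 in DESeq2, and 54 to 555 with a library left out. With 2 libraries a group, a difference the size of the gap between the knockdown libraries cannot be told from a difference between groups.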
